A study of Mus musculus with 4 samples.

Results

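Day 16 of adipocyte culture was compared with day 12, using 2 of the 4 miRNA arrays of the series, the arrays whose culture period is labelled D12 and D16. 3T3-L1 is a preadipocyte cell line from the mouse that fills with lipid droplets once differentiation is induced. Cells received DM-1, a differentiation medium with 1-methyl-3-isobutylxanthine, dexamethasone and insulin, and then DM-2, which contained insulin, and all media were made with fetal bovine serum depleted of exosomes. The exosome fraction of the medium was pelleted by ultracentrifugation and its RNA was hybridised to a single-colour (Cy3) mouse array. D12 and D16 cells had thus received the same media and differed in the length of culture. Material of independent experiments was pooled for each day, 2 experiments by the methods and 3 by the sample descriptions, so that a day is represented by a single pooled array. With 1 array a day no replicate check exists and no p-value is given, and the technical error used below covers variation within an array alone.

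Each array held 1881 miRNAs, each read by 30 spots divided among 1 to 4 probes. The signal of a miRNA is the sum over its probes that exceed 3 times their own error. Of the 1881 miRNAs, 371 were detected on both days, which was 91.4% of the 406 detected at D12 and 97.6% of the 380 detected at D16. A centred change is the log2 of D16 over D12 after subtraction of the median of these 371 miRNAs. A miRNA was called when its centred change exceeded 2 technical errors.

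Exosomes are small vesicles of endosomal origin that leave the cell and carry proteins and RNA, among them mature miRNAs. A mature miRNA guides Argonaute proteins to messenger RNAs that pair with its seed, and the level in vesicles depends on synthesis in the cell, on loading and on release. Fat cells are among the sources of vesicle miRNAs in the circulation, and differentiation of preadipocytes is accompanied by changes in miR-143, miR-103, miR-30, miR-26, the miR-193b and miR-365 pair, and miR-27 and miR-130, of which the last named restrain it.

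The mature sequences below belong to the miRNAs on which the comparison turns, those called over the probes detected on both days, with a seed relative and the clearest gain. Capitals mark the seed, bases 2 to 8. Of the 16 miRNAs called in this way, 12 were found in RefSeq GRCm38.p6, from which all sequences were taken, and 4 are named only. Across the array 1608 of the 1881 names matched. The first 11 lines hold miRNAs that were higher at D16 and miR-193b-3p, the next 2 hold miRNAs that were lower, and the last was gained.
miR-126a-3p: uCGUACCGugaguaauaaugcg
miR-193a-3p: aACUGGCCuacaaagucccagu
miR-193b-3p: aACUGGCCcacaaagucccgcu
miR-6969-5p: cAGCAGAGuagggagcaaaaga
miR-7020-5p: uGGGAUGGuggagagggugaccag
miR-7082-5p: uACGGGCAggaggaggggagg
miR-6908-5p: uUGCCUGUcagggagagcccca
miR-6368: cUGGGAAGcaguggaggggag
miR-3473b: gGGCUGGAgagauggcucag
miR-2137: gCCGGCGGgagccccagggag
miR-8117: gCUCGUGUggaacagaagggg
miR-214-3p: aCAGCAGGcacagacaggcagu
miR-706: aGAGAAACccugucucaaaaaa
miR-5110: gGAGGAGGuagagggugguggaauu
The 12 called miRNAs with a sequence had 12 different seeds, and the pair that shares a seed here is miR-193a-3p and miR-193b-3p. In the same gene table, 11 of the 12 lay inside the span of another gene. miR-126a lay in Egfl7, an endothelial gene, miR-214 in Dnm3 and its antisense transcript Dnm3os, miR-6969 in the pancreatic colipase gene Clps, miR-7020 in Aldh4a1 and miR-706 in Wnk1. Only miR-193a lay outside every such span.

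The signals of most miRNAs were lower at D16 than at D12, and so were those of the added spike-in RNAs. The log2 of D16 over D12 was negative for 355 of the 371 miRNAs, and its median was -0.51, a D16 signal of 0.703 times that of D12. The 4 detected spike-in RNAs, which the kit adds to every sample, moved by -0.44 on average, between -0.47 and -0.41. The software had multiplied the signals by an effective spot size of 0.760 at D12 and its default of 0.6 at D16, and the log2 ratio of these sizes is -0.34. Without the spot size the median fell by 0.17 and the spike-ins fell by 0.095. What else the common shift holds was not tested. After its removal, the robust SD of the centred changes was 0.19, against a median technical error of 0.23, and 73.3% of the miRNAs lay within 1 technical error. This share depends on the error used, since the error from replicate spots had a median of 0.06 among the miRNAs, and with it 111 were called higher and 113 lower. Neither error holds the variation between arrays or cultures.

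**Figure D1:**
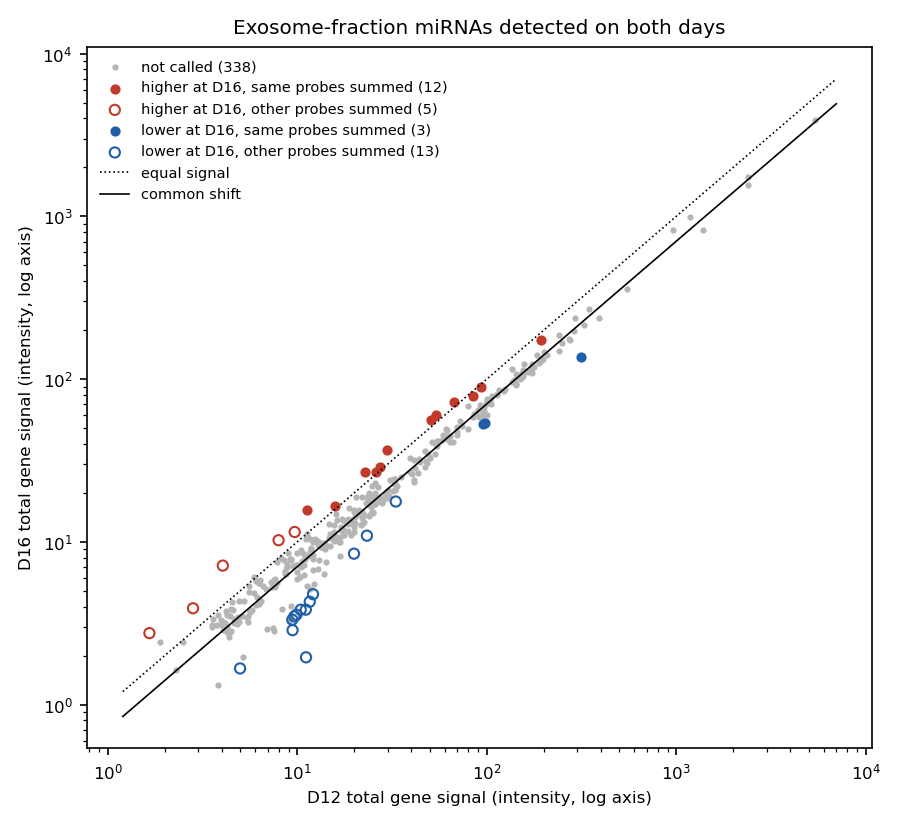
Total gene signal at D16 against D12 for the 371 miRNAs detected on both days, both axes in intensity on a log scale. Filled red and blue points are called miRNAs with the same probes summed on both days, open ones are called miRNAs with other probes summed at D16, and the solid line is the common shift, which the grey points follow.

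Beyond 2 technical errors, 17 of the 371 miRNAs were higher at D16 (4.58%) and 16 were lower (4.31%). With the spike-ins as the common shift the split was 14 higher and 27 lower, and with the 75th percentile, which moved the median of all miRNAs to -0.10, it was 13 and 29. Part of these calls came with a change in which probes were summed. The same probes were summed on both days for 337 of the 371 miRNAs, fewer at D16 for 28, more at D16 for 5 and different ones for 1. The median centred change was 0.01 with the same probes, -0.83 with fewer and 0.98 with more. Of the 16 lower miRNAs, 13 had fewer probes at D16, and of the 17 higher ones, 5 had more. Over the probes detected on both days, 12 of 370 miRNAs were higher (3.24%) and 4 were lower (1.08%), and all 16 were among those called before. This reading is an alternative to the sums of each day, and it was given the leading place below after the values were seen. In either direction 33 of 371 (8.89%) were called as summed and 16 of 370 (4.32%) over shared probes. Combinations added after seeing the data gave 9 higher and 8 lower over shared probes with the spike-ins as the common shift, and 108 and 99 with the error taken from replicate spots. None of the 16 reached a centred change of 2-fold. With normexp, a background correction that adds an offset of 50 to every spot, miR-126a-3p, miR-3473b, miR-6969-5p, miR-709 and miR-3960 were called and the others of the 16 were not. The technical error in these calls was that of the summed signals and was not recomputed after the offset, which makes log2 changes smaller. A call missing with normexp is therefore not read as a failed check. The centred changes of the 12 higher miRNAs were all smaller with normexp, between 0.21 and 0.39, and that of miR-706 was -0.15. Those of miR-3960, miR-214-3p and miR-5620-3p were -0.69, -0.32 and -0.30, near their values without it. The common shift with normexp was -0.064, so less of the general fall in signal was removed from bright miRNAs. The uncalled miR-451a likewise went from -0.11 to -0.22 with normexp. Nothing is read from this contrast between higher and lower miRNAs.

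**Figure D2:**
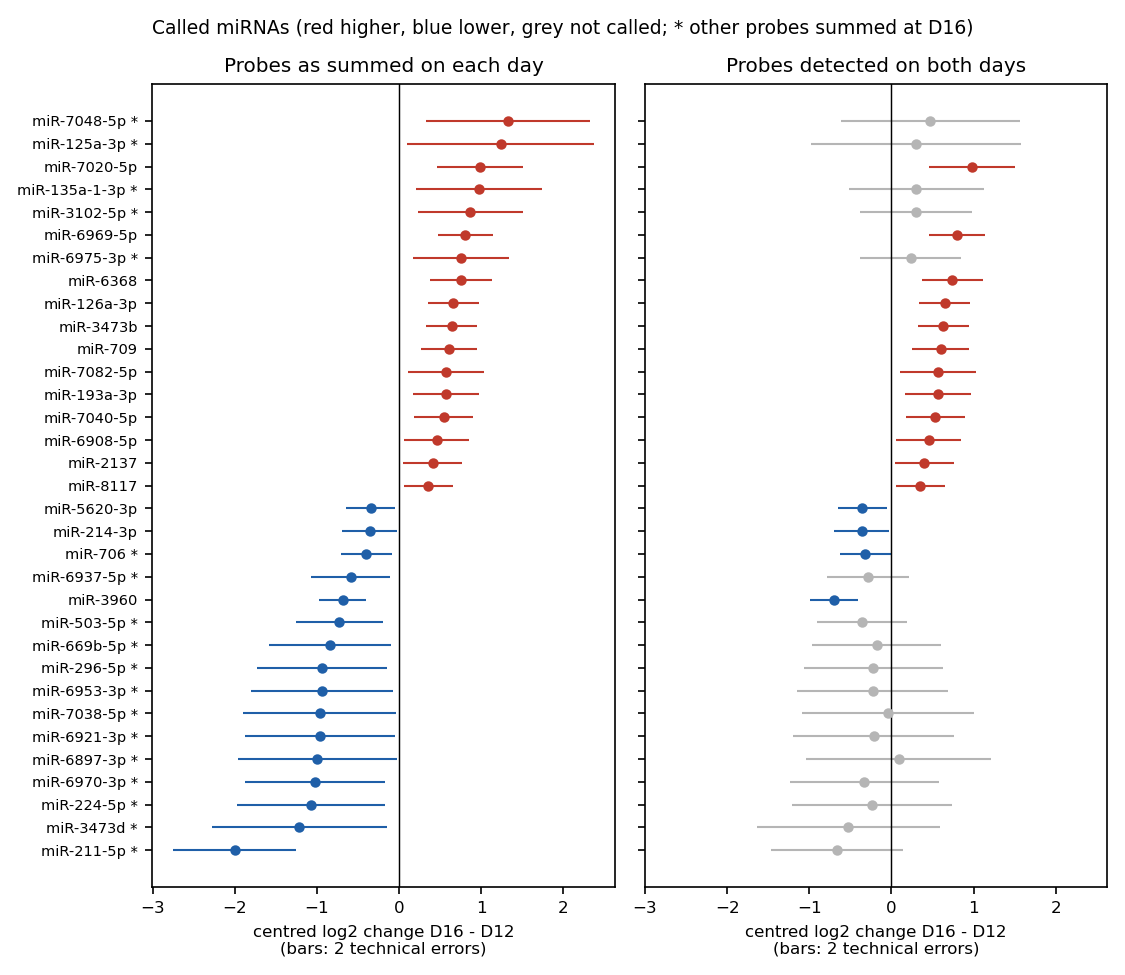
Centred log2 change of the 33 called miRNAs with the probes summed on each day (left) and over the probes detected on both days (right), with bars of 2 technical errors. Red marks miRNAs called higher, blue lower and grey not called, and the asterisk marks miRNAs with other probes summed at D16, of which miR-706 alone was called on the right.

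Among the higher miRNAs, the vascular miR-126a-3p and miR-193a-3p belong to well-studied families. miR-126a-3p is abundant in endothelial cells and in platelets. It was not detected at D0, had a signal of 13.4 at D4, and went from 54.0 ± 4.20 (technical error) at D12 to 59.9 ± 4.50 at D16. While most miRNAs were dimmer at D16, its unscaled signals differed by less than 2 technical errors, and its centred change was 0.66 ± 0.16, or 1.58-fold, and 0.39 with normexp. Its probes gave 0.66 and 0.65. The same held for the others: the unscaled D12 and D16 signals of all 12 differed by less than 2 technical errors, so that higher here means relative to the common shift. miR-193a-3p was likewise not detected at D0 and had 10.9 at D4. It then went from 27.5 ± 2.81 at D12 to 28.8 ± 2.72 at D16. Its centred change was 0.57 ± 0.20. The seed relative miR-193b-3p, which is made with miR-365 in fat cells, went from 43.6 at D12 to 26.6 at D16 and had a centred change of -0.20 ± 0.18, which was not called.

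The other higher miRNAs carry late entry numbers in the miRNA register or few described functions. miR-7020-5p had the highest centred change over the shared probes, 0.98 ± 0.26, which was 0.33 and not called with normexp. In the order of the days its signal was 5.41, 12.2, 11.2 ± 1.58 and 15.7 ± 1.80, with 1 probe summed at D12 and D16. miR-6969-5p was at 9.99, 29.0, 29.8 ± 2.63 and 36.8 ± 2.90 on the same days, and its centred change was 0.81 ± 0.17, and 0.39 with normexp. With miR-126a-3p and miR-193a-3p, they were the members of the 12 whose unscaled D16 signal was above that of D4, while in the other 8 it was below. The common shift was -0.21 from D4 to D12 and -0.51 from D12 to D16, so nothing is read from this split. Among the 8, miR-8117 had positive centred changes in both intervals, 0.16 and 0.36. miR-709, a miRNA described in the nucleus, had 36.7 at D0 and 100.2 at D4, followed by 67.1 ± 5.76 at D12 and 71.8 ± 5.95 at D16, and a centred change of 0.61 ± 0.17.

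The centred change from D4 to D12 was negative in 7 of the 12 higher miRNAs, and in 176 of the 349 miRNAs that were also detected at D4 (50.4%), so that the share was near that of all miRNAs. On D0, D4, D12 and D16, miR-3473b was at 58.2, 208, 50.9 ± 3.94 and 55.8 ± 4.15, and miR-6368 was at 21.0, 48.7, 22.8 ± 2.25 and 26.97 ± 2.29. Their centred changes from D12 to D16 were 0.64 ± 0.16 and 0.75 ± 0.19, after -1.82 and -0.89 from D4 to D12. miR-2137 was at 174, 542, 84.9 ± 7.56 and 79.3 ± 6.99, with a centred change of 0.41 ± 0.18. The intervals share the D12 array, so that a low D12 reading would enter both. For miR-7040-5p, miR-7082-5p and miR-6908-5p the D12 and D16 signals were 26.2 and 26.8, 15.8 and 16.6, and 92.9 and 89.9. The probes of miR-7082-5p had centred changes of 0.39 and 0.83, and those of miR-6908-5p 0.08 and 0.47. miR-8117 had the lowest centred change among the 12, 0.36 ± 0.15, with signals of 82.3, 199.8, 193 ± 14.0 and 174 ± 12.7 in the order of the days. miR-8117, miR-2137 and miR-6908-5p were not called with the spike-ins or the 75th percentile as the common shift.

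**Figure D3:**
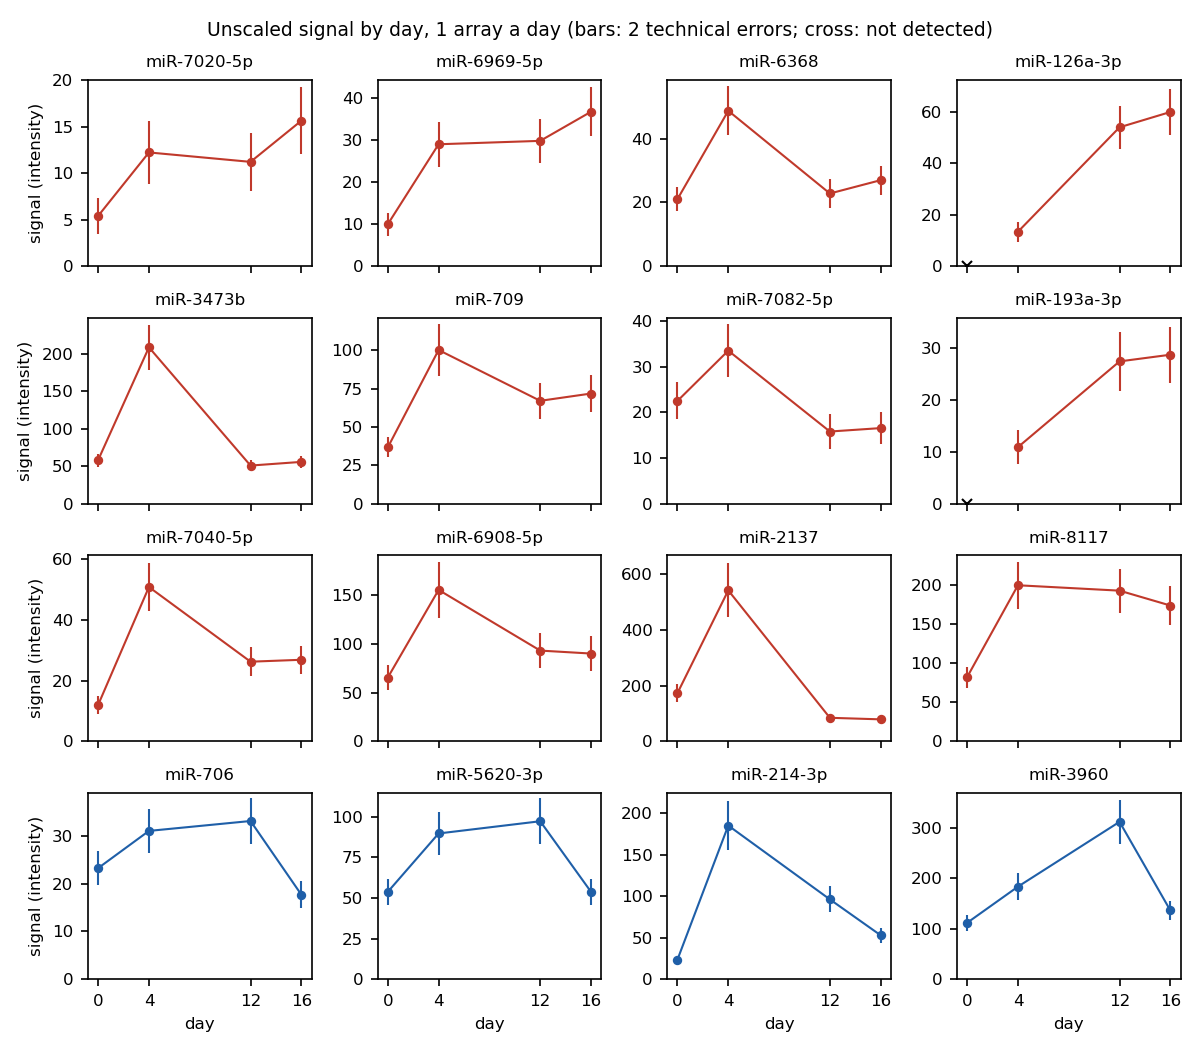
Unscaled signal (intensity) of the 16 miRNAs called over shared probes by day of culture, each on its own axis, with bars of 2 technical errors and a cross where the miRNA was not detected. The 12 red miRNAs differed by less than 2 technical errors between D12 and D16 while the common level fell, and the 4 blue ones fell further than it did.

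Over shared probes, miR-3960 had the most negative centred change of the lower miRNAs. This miRNA, described in bone-forming cells, was at 112 at D0 and 184 at D4, was highest at D12 with 313 ± 22.2, and was at 136 ± 9.77 at D16. Its centred change was -0.69 ± 0.15, with -0.71 and -0.69 from its probes. Relative to the common shift it was 1.61-fold lower at D16. All 15 spots of each of its probes were well above background on both days.

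miR-214-3p, which is processed with miR-199a from the Dnm3os transcript of mesenchymal cells, was the one lower miRNA among the 9 chosen for qPCR. It was at 23.5 at D0 and 185 at D4 and went from 96.1 ± 7.85 at D12 to 52.8 ± 4.39 at D16, and its centred change was -0.36 ± 0.17. The other detected arms of the miR-199 and miR-214 list, miR-199a-3p, miR-199a-5p and miR-199b-5p, had centred changes of -0.12, -0.12 and -0.09, none of them called. Of all miRNAs, 4.31% were called lower as summed and 1.08% over shared probes. Nothing is read from the counts of this list or of the qPCR list. miR-5620-3p went from 97.4 ± 7.08 to 53.8 ± 4.01, a centred change of -0.35 ± 0.15. miR-706 went from 33.1 ± 2.37 to 17.7 ± 1.40, and over its 3 shared probes the centred change was -0.32 ± 0.16, which is 2.06 technical errors. Just outside the threshold over shared probes were miR-6481, with a centred change of -0.55 ± 0.30, and miR-3473g, with 0.28 ± 0.15.

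Apart from miR-706, which lost 1 of its 4 summed probes, the lower miRNAs with fewer probes at D16 had D12 signals of at most 23.3. miR-211-5p, encoded in an intron of the melanocyte gene Trpm1, had the most negative centred change as summed, -2.00 ± 0.37, from a signal of 11.1 at D12 to 1.95 at D16. At D12 4 of its probes were summed and at D16 1, and over that probe the change was -0.66 ± 0.40. miR-503-5p, a neighbour of miR-322 on the X chromosome, went from 19.9 to 8.46, a centred change of -0.73, and over its shared probe the change was -0.36 ± 0.27. miR-224-5p, listed among miRNAs that fall in adipogenesis, had -1.07 as summed and -0.24 ± 0.49 over the shared probe. The others, miR-3473d, miR-6970-3p, miR-6897-3p, miR-6921-3p, miR-7038-5p, miR-6953-3p, miR-296-5p, miR-669b-5p and miR-6937-5p, had D12 signals between 9.42 and 23.3 and were not called over the shared probe. For miR-6897-3p the sign changed, from -0.99 as summed to 0.09. In the other direction miR-7048-5p had 1.33 as summed, from 4.05 at D12 to 7.14 at D16, and 0.47 ± 0.55 over the shared probe. miR-125a-3p, miR-135a-1-3p, miR-3102-5p and miR-6975-3p, with D16 signals between 2.75 and 11.5, were not called over the shared probe either.

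The label of late adipocytes was set beside miRNAs described as rising in adipogenesis. All 15 on the list were detected at D12 and 14 at D16, against 6 at D0 and 13 at D4. Over all miRNAs 329, 426, 406 and 380 were detected in the order of the days. The summed signal of the list was 159, 1154, 808 and 606, and that of all detected miRNAs was 12716, 39129, 30966 and 21873, lowest at D0. Not every signal was lowest there: the 5p arms numbered 5000 or above summed to 2152 at D0 and 1789 at D16. The list had its highest signal from miR-21a-5p on each day. Signals of different miRNAs come from different probes and are not levels relative to each other. From D12 to D16 none of the 14 was called, against 4.32% of all miRNAs over shared probes. Nothing is read from a count of none among so few. Their median centred change over shared probes was 0.13 against 0.00 for all 370 miRNAs, and 11 of the 14 were positive. The median was positive under every scaling and signal tried. miR-148a-3p, which was not detected at D0 or D4, was at 25.7 ± 2.46 at D12 and 22.9 ± 2.11 at D16, a centred change of 0.34 ± 0.19. miR-103-3p and miR-107-3p, which act on insulin signalling, had 0.12 and 0.14, and miR-26a-5p and miR-26b-5p had 0.02 and 0.04. The negative members were miR-193b-3p with -0.20, miR-146b-5p with -0.08 and miR-210-3p with -0.08. miR-204-5p was detected at D12 with a signal of 7.39 and was not detected at D16. Scaled to D16 that signal was 5.20, below the 5.40 that could have gone undetected there.

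Of the 13 miRNAs described as falling in adipogenesis, 6 were detected at D12 and 5 at D16. The 5 had a median centred change of 0.08 over shared probes, negative with the 75th percentile or normexp, with 1, miR-224-5p, called lower as summed and none over shared probes. Of all miRNAs, 4.31% were called lower as summed and 4.32% in either direction over shared probes, and nothing is read from counts among so few. miR-27a-3p was at 62.0 ± 5.20 at D12 and 48.6 ± 4.04 at D16, and miR-130a-3p was at 143 ± 10.4 and 106.9 ± 7.77. Both repress PPARγ, the main adipogenic transcription factor, and their centred changes were 0.16 ± 0.17 and 0.08 ± 0.15. Of the others, miR-27b-3p had 0.34 ± 0.55, miR-221-3p had -0.17 ± 0.25, and miR-224-5p had -1.07 ± 0.45 as summed and -0.24 ± 0.49 over the shared probe. miR-31-5p was detected at D12 with a signal of 4.36 and not at D16, where 5.35 could have gone undetected. miR-155-5p and miR-222-3p were detected at D4 alone.

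A total of 18 miRNAs were detected at both D12 and D16 but on neither earlier day, and none of them was called, against 8.89% of all miRNAs as summed. They had a median technical error of 0.40, against 0.23 for all. miR-378a-3p, encoded in the gene of the coactivator PGC-1β, was at 10.4 ± 1.72 at D12 and 8.92 ± 1.39 at D16. miR-148a-3p and miR-378a-3p are the members of the rising list in this set, and the centred change of miR-378a-3p was 0.28 ± 0.33.

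Broadly expressed families were read over shared probes. Of the 9 let-7 guide arms, growth-restraining miRNAs with the seed GAGGUAG, none was called, and the median centred change over shared probes was -0.09 with a range from -0.19 to 0.17. let-7a-5p was at 324 ± 25.7 at D12 and 216 ± 17.2 at D16. The 6 members of the miR-15/16 family had a median of -0.07, with miR-322-5p lowest at -0.23, and the 8 of the miR-17 and miR-106b clusters had -0.08. The miR-23/24/27 clusters had 0.15 over 5 members, the miR-29 family 0.09 over 3 and the miR-30 guide arms 0.02 over 5. No member of these families was called over shared probes, against 4.32% of all miRNAs, and nothing particular to them is read from it. The median of the miR-30 arms was negative with the spike-ins or the 75th percentile, that of the miR-29 family was negative with the 75th percentile, and that of the miR-17 and miR-106b clusters was positive over the miRNAs detected on all 4 arrays. Among the 7 seed families with at least 3 members detected on both days, the medians lay between -0.09 and 0.14.

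The other 8 miRNAs chosen for qPCR were not called, against 8.89% of all miRNAs as summed and 4.32% over shared probes. From a count of none among 8 nothing is read. The red blood cell miRNA miR-451a went from 2400 ± 182 at D12 to 1559 ± 119 at D16, after 9.40 and 443 on the earlier days, a centred change of -0.11 ± 0.15. It was -0.11 for miR-16-5p, -0.10 for miR-34a-5p, -0.16 for miR-99a-5p and -0.04 for miR-125b-5p, and it was 0.16 for miR-22-3p, -0.01 for miR-30d-5p and 0.08 for miR-130a-3p. All lay within 1 technical error.

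**Figure D4:**
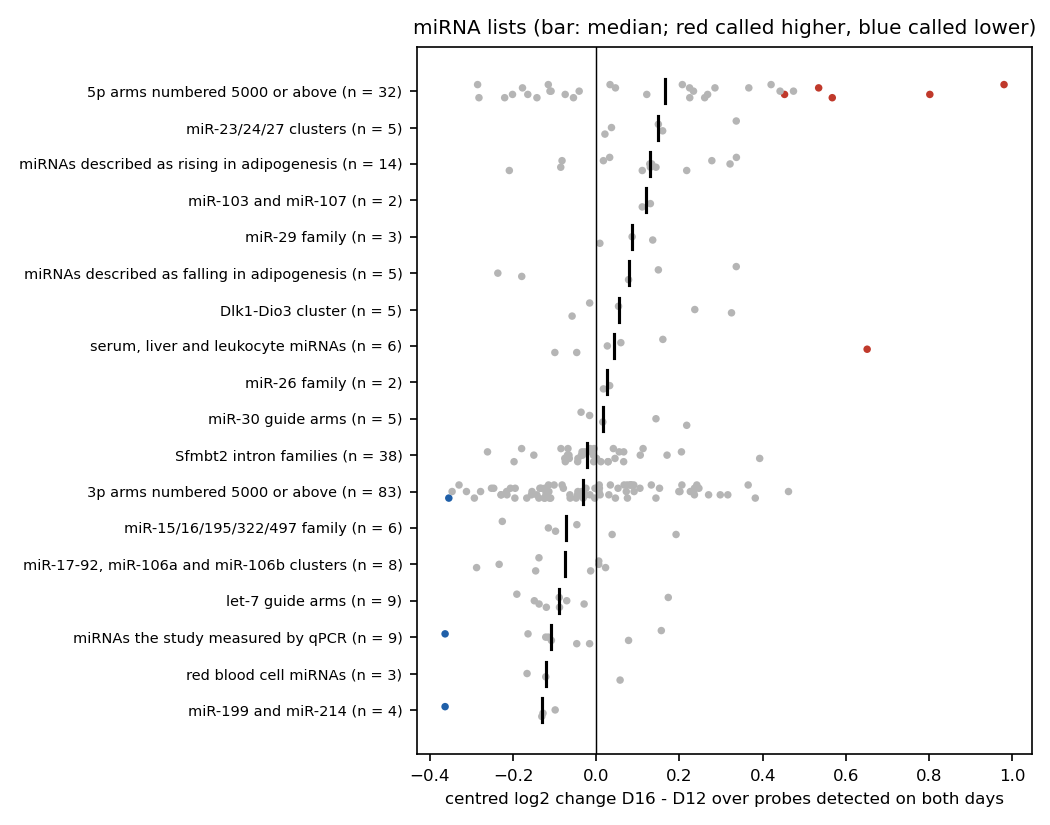
Centred log2 change from D12 to D16 over the probes detected on both days for the members of each list, with 1 point for each miRNA and a bar at the list's median. Red points were called higher and blue lower. Of the 12 miRNAs called higher, 5 belong to the 5p arms numbered 5000 or above, and the medians of the other lists lay between -0.13 and 0.15. The sign of the median changed under another scaling or set of miRNAs for the serum, adipogenesis falling, miR-17 and miR-106b, miR-30, miR-29, miR-26 and Dlk1-Dio3 lists.

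Late-numbered arms held part of the higher calls. Of the 32 5p arms with a number of 5000 or above, 5 were called higher over shared probes, against 3.24% of all miRNAs, and their median centred change was 0.16 against 0.00. Of the 83 3p arms with such numbers, none was called higher and 1, miR-5620-3p, was called lower, against 1.08% of all miRNAs, with a median of -0.03. As summed, 6 of the 5p arms were called higher and 2 lower, and 1 of the 3p arms higher and 5 lower, against 4.58% higher and 4.31% lower of all miRNAs. Whether the arms differ was not tested. These lists are named by register numbers and share no function. The 38 detected members of the Sfmbt2 intron families had a median of -0.02 with none called over shared probes and 1, miR-669b-5p, called lower as summed, and the 5 of the Dlk1-Dio3 imprinted cluster had 0.05, negative with the spike-ins or the 75th percentile, with none called. Over all miRNAs 4.32% were called over shared probes, and nothing is read from these counts. The mature sequences of the higher miRNAs had a median GC content of 63.1% (10 of 12 with a sequence), against 54.5% over all but the 73 of the 370 that have no sequence in the table. For the lower ones a check of GC content is void, since 2 of 4 have a sequence. Across the miRNAs with a sequence the centred change had a Pearson correlation of 0.13 with GC content (Spearman 0.09) and of -0.10 with length (Spearman -0.15). Across the 370 it was -0.11 with the mean log2 signal (Spearman -0.13). miRNAs of an array are not independent replicates, and these values are descriptions.

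Markers of other cells were read on the same arrays. Of 6 red blood cell miRNAs on the array, 4 were detected at D12 and 3 at D16, and 2, miR-486a-3p and miR-486b-3p, were not detected on any day. Their signals summed to 9.40, 468, 2528 and 1649 in the order of the days, with the highest signal from miR-451a. None of the 3 detected on both days was called, and from so few nothing is read. Of 7 serum, liver and leukocyte miRNAs, 6 were detected on both late days, with a summed signal of 150.2 at D12 and 127 at D16. At D4 the sum was 34.5, and at D0 none was detected. miR-126a-3p, the one called, belongs to this list, and over shared probes 4.32% of all miRNAs were called. Beside it, miR-223-3p of myeloid cells went from 69.6 ± 5.94 to 47.6 ± 4.14, a centred change of -0.04 ± 0.18, liver miR-122-5p from 6.26 to 4.13, a change of -0.09 ± 0.45, and miR-142a-3p of leukocytes from 7.36 to 5.30, a change of 0.03 ± 0.38. The remaining detected members, miR-192-5p and miR-142a-5p, had changes of 0.17 ± 0.55 and 0.07 ± 0.41. miR-150-5p was not detected on any day. The part of serum or of other cells in the miR-126a-3p change was not tested. All 7 striated muscle miRNAs, with miR-1a-3p, miR-133a-3p and miR-206-3p among them, were undetected on all 4 arrays, as were 1414 of all 1881 miRNAs.

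At D16, 9 miRNAs were detected that were not detected at D12, and 35 were lost. miR-5110 was the clear gain. Its probes gave 0.94 and 1.24 at D12, below their limits, and 5.17 and 9.64 at D16, where 10 and 15 of 15 spots were well above background. It was not detected at D0 or D4, and its D16 signal was 14.8 ± 1.65. After scaling to D12 this was 21.0, or 16.3 with 2 technical errors subtracted. A signal of 6.63 could have gone undetected at D12, and scaled miR-5110 was at 3.18 times that limit. Its function is little described, and its gene lies in the span of Bcas3.

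The other 8 gains stayed below the limit of D12 after scaling, and no ratio to it is given here. They were miR-483-5p, miR-3106-5p, miR-6906-3p, miR-7008-5p, miR-6984-5p, miR-18a-5p, miR-5112 and miR-466o-3p, with D16 signals between 1.92 and 4.70. miR-483-5p, encoded in an intron of the imprinted Igf2 gene, was at 20.04 at D0 and 27.9 at D4 and was then listed as undetected at D12 and as 4.70 ± 0.79 at D16. Its 4 probes summed to 5.10 at D12 and 5.27 at D16 whether detected or not, so that a small difference decided the call. miR-18a-5p belongs to the miR-17 cluster and was at 2.80 ± 0.92 at D16.

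The lost miRNAs had a median D12 signal of 4.19 and none was above 10.8. Scaled to D16, 10 of the 35 had a signal above the limit of that day. The rest lay below it, so that no change is read from their loss. miR-6927-5p was the brightest, with 10.0 at D4, 10.8 ± 1.55 at D12 and no detection at D0 or D16. Scaled to D16 its signal was 7.61, which was 1.41 times the limit of 5.39. With 2 technical errors subtracted it still exceeded the limit, at 5.42. The next 7, miR-3103-3p, miR-6904-3p, miR-7661-3p, miR-7050-3p, miR-7218-5p, miR-7025-3p and miR-6948-5p, had D12 signals from 9.86 to 8.05. Their scaled signals were between 1.26 and 1.04 times the limit, each within 2 technical errors of it. Among list members, miR-144-5p, the partner arm of the red blood cell miRNA miR-144-3p, was listed at 4.23 at D12 and was then lost, while miR-144-3p was at 106.7 and 78.4. Scaled to D16 the miR-144-5p signal was 2.97, below the limit of 5.34.

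**Figure D5:**
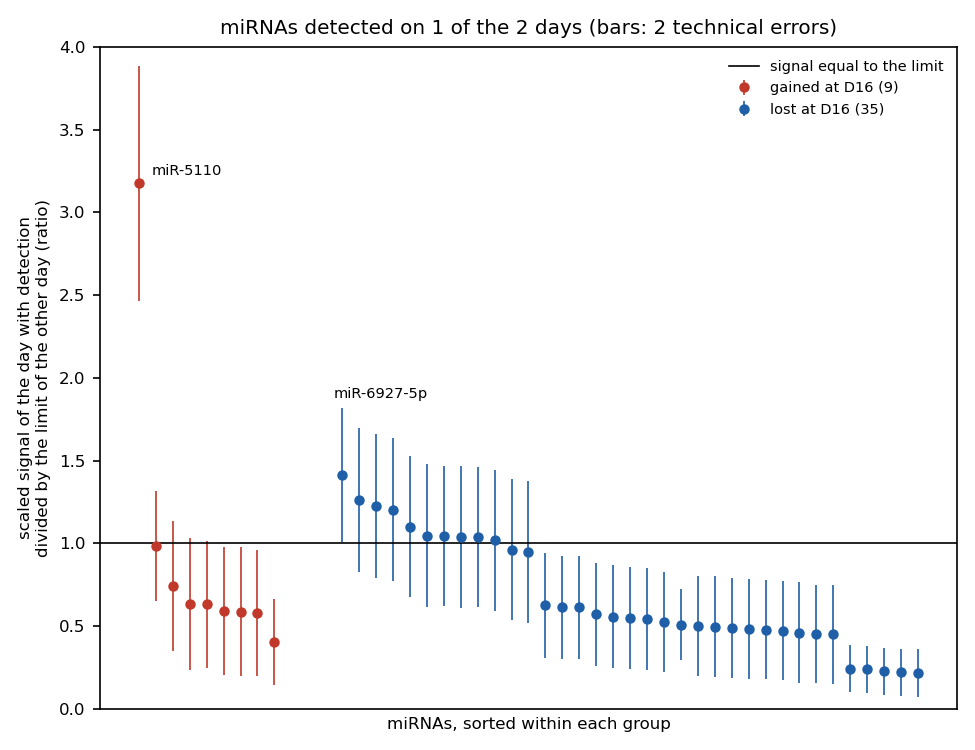
Signal of the 44 miRNAs detected on 1 of the 2 days, scaled by the common shift and divided by the limit of the day without detection, as a ratio with bars of 2 technical errors. miR-5110 among the gained (red) and miR-6927-5p among the lost (blue) lie above the line at 1 with their whole bars, at ratios of 3.18 and 1.41, and the bars of all others cross the line or end below it.

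The late interval held fewer departures than the earlier ones, read in the same way over shared probes. From D0 to D4, 153 of 316 miRNAs were called in either direction (48.4%), and from D4 to D12, 114 of 373 (30.6%), against 16 of 370 from D12 to D16. The robust SD of the centred changes was 0.80, 0.35 and 0.18 in the same order, with median technical errors of 0.24, 0.22 and 0.23. At 2-fold or more there were 78 departures from D0 to D4, 53 from D4 to D12 and none from D12 to D16. The intervals also differ in length, and the D0 array was uneven, with a median coefficient of variation between spots of 21.1% against 7.78% at D12 and 8.07% at D16. Whether the intervals differ beyond the variation between cultures was not tested. Between D4/D0 and D16/D12, which share no array, the centred changes of 283 miRNAs had a Pearson correlation of 0.05 (Spearman 0.17). The largest increase in each earlier interval was that of miR-451a, a centred change of 4.31 and then 2.65, while over shared probes its change in the late interval was -0.12.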

How the data were processed

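Exosome-fraction RNA of 3T3-L1 cultures was measured at D0, D4, D12 and D16 on 1 pooled single-colour array a day. The authors deposited intensity values from Agilent Feature Extraction 11.0.1.1 (11.0 in the submitters' processing notes), background-subtracted and not scaled between arrays. The total gene signal sums the probes above 3 times their error and is listed as 0.1 where none is. From it, centred log2 changes, calls beyond 2 technical errors, detection limits and list medians were derived in Python 3.11.15 (pandas 2.3.3, numpy 2.4.6, statsmodels 0.14.6, scipy 1.17.1), and normexp (offset 50, on median spot signals, since the files hold no mean spot signal) with limma 3.58.1 in R 4.3.3. The technical error of a change combines the software's errors of both signals. The limit of an undetected miRNA is the higher of 3 times its summed probe errors and the lowest detected signal of the day. The median shift and the calls beyond 2 technical errors were tested on simulated data, drawn from the brighter D12 miRNAs. Changes in the probes summed, detection limits and list medians were not simulated. Precision is limited by having 1 array a day.

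The members and lists were chosen with earlier results of these data known. Named miRNAs are the 12 called ones with the largest change in each direction, all gained ones, the 8 brightest lost ones, the 9 qPCR miRNAs and list members. miR-193a-3p, miR-2137, miR-5620-3p, miR-6481, miR-6908-5p, miR-6937-5p, miR-7040-5p, miR-706, miR-3473g and miR-8117 fall outside this rule and were named after their values were seen. The values over probes detected on both days, a listed alternative, were given the leading place after both sets of calls were seen. Alternatives were other scalings, probes, error estimates, thresholds and detection rules.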

Additional observations from a re-analysis of the deposited data

How the results depend on the processing

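The common shift was -0.51 and moved to -0.064 with normexp at an offset of 50, which adds a constant to every spot, and by less than the median technical error otherwise. The technical error was not recomputed for normexp, so its calls set changes made smaller by the constant against unchanged errors. The robust SD of the centred changes lay between 0.08 and 0.19. The 17 higher miRNAs became 4 with normexp, 47 at 1 technical error, 6 at 3, 11 with a 1.5-fold minimum added, 2 at 2-fold without the error, 111 with the error from replicate spots and 10 among miRNAs above the median signal on both days. The 16 lower ones became 27 with the spike-ins, 29 with the 75th percentile, 4 over shared probes, 4 with the processed signals averaged over replicate spots, 1 with normexp, 52 at 1 technical error, 2 at 3, 5 at 2-fold without the error, 113 with the replicate-spot error and 4 among the brighter miRNAs. The error from replicate spots had a median of 0.06 against 0.23 for the software's. Combinations chosen after seeing the data gave, over shared probes, 108 higher and 99 lower with replicate-spot errors, and 9 higher and 8 lower with the spike-ins. The 9 gained miRNAs became 1 and the 35 lost 1 when the signal less 2 errors had to exceed the limit of the other day. When detection asked for 50% or more of a probe's spots to stand above background, 23 were lost. The 175 departures from D0 to D4 became 98 and the 130 from D4 to D12 became 68 at 2-fold without the error.

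The centred change of miR-6897-3p reversed over its shared probe, from -0.99 to 0.090, where 1 of its probes was left. For the other called and qPCR miRNAs no sign of a called value changed under the other scalings and signals, and 57 of their values moved by over 1 technical error. Each of the 16 miRNAs called over shared probes was on the same side of the shift in every scaling and signal, and miR-126a-3p, miR-3473b, miR-6969-5p, miR-709 and miR-3960 were called in all of them. The calls with normexp used errors that were not recomputed. miR-2137, miR-6908-5p and miR-8117 were not called with the spike-ins or the 75th percentile. Dim signals limit what can be seen: the median technical error was 0.46 among the 93 dimmest of the 371 miRNAs and 0.15 among the 93 brightest. The cause of these differences was not tested where no value shows it.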
